A study of Mus musculus with 3 samples.

Results

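Sphingosine-1-phosphate (S1P) and lysophosphatidic acid (LPA) are signalling lipids that act through G protein-coupled receptors. The genes described here are 10 members of the 2 pathways, S1pr1, S1pr2, S1pr3, Sphk1, Sphk2, Spns2, Lpar1, Lpar6, Plpp1 and Plpp3, chosen by symbol from the 52661 gene identifiers measured. Each symbol matched a single identifier, and the choice was made with earlier results of these data known. Their RNA levels were read by bulk RNA sequencing of mouse mammary cells sorted into 3 populations. With 1 library per population there is no replicate error, and no test between populations was possible. Each ratio below compares a pair of libraries, and "CD36+ cells" and the like stand for the library made from them.

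Per the labels, all 3 populations were PROCR+ mammary epithelial cells (PROCR is the protein C receptor) from a gate of EpCAM+ cells with high CD49f. The CD36+ library came from cells positive for the fatty acid receptor CD36 and negative for podoplanin (PDPN), and its title adds Cdh5+. The PDPN+ library came from CD36- PDPN+ cells, given as Cdh5-, and the double-negative library from CD36- PDPN- cells, given as Cdh5+. The sources used here do not give strain, age, genotype, the number of mice or cells per library, or whether animals were pooled.

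S1P is made inside cells when sphingosine kinases phosphorylate sphingosine, and it leaves endothelial cells through the transporter SPNS2. Blood and lymph carry high S1P, and its receptor S1PR1 on endothelium holds junctions together and restrains vessel sprouting. LPA is made mostly outside cells by autotaxin, the secreted enzyme encoded by Enpp2, and acts on its own family of receptors. Lipid phosphate phosphatases of the cell surface, encoded by the Plpp genes, remove the phosphate from both lipids and so end their signals.

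Total estimated counts lay between 51138993 and 67675778 per library. Levels are given as CPM, counts scaled to library size with TMM factors, where a gene is compared between libraries. The deposited TPM, which also correct for transcript length, are given where genes are compared with each other. Folds carry 95% exact (Clopper-Pearson) counting intervals, which cover counting error only. To be called, a gene needed a 4-fold ratio or more and a level of 10 CPM or more in the higher of the pair. The labelled cell type was checked against markers. The 6 endothelial markers summed to 3840 CPM (CD36+), 109 (PDPN+) and 2705 (double-negative), and all 6 exceeded PDPN+ cells by 4-fold or more in both of the others. The 5 basal epithelial markers summed to 55.6, 4256 and 198 CPM in the same order, and all 5 were at least 4-fold lower than in PDPN+ cells in each. Trp63, which defines basal cells, had 3, 129608 and 1720 counts. The basal markers did not order the CD36+ and double-negative libraries alike. Krt14 was lower in CD36+ than double-negative cells (0.186 against 123 CPM). Krt5 was higher there (18.4 against 3.03 CPM), and Acta2 was close in the pair (37.0 and 38.4 CPM). The 5 luminal epithelial markers summed to 324, 631 and 272 CPM. Of the 4 that reached 10 CPM, 0 were at least 4-fold apart from PDPN+ cells in either of the others. The luminal keratins Krt8 (122, 326 and 84.4 CPM) and Krt18 (131, 284 and 145 CPM) were highest in PDPN+ cells, and Krt19 was lowest there (33.9, 9.33 and 36.9 CPM). The CD36+ and double-negative libraries thus carry endothelial markers under an epithelial label, and luminal keratins were present in both. In bulk RNA, fewer cells of a type and less RNA per cell cannot be told apart.

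Among the receptors for S1P, S1pr1 dominated both libraries with an endothelial profile. S1pr1, the endothelial S1P receptor (chromosome 3, 115710433 to 115715072, minus strand of mm10), stood at 562 CPM (CD36+), 2.34 CPM (PDPN+) and 506 CPM (double-negative). The CD36+ and double-negative libraries were thus both high and close together, and PDPN+ cells, with 173 counts, were far below them. S1pr1 was 240.1-fold higher in CD36+ than PDPN+ cells (206.8 to 280.4) and 216-fold higher in double-negative than PDPN+ cells (186 to 253). Its ratio of CD36+ to double-negative cells was 1.11 (1.09 to 1.13), and its direction turned under scaling by total counts. In CD36+ cells, only 1.32% of the genes with reads were as high as S1pr1 or higher, and in PDPN+ cells 42.8% were.

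S1pr2 and S1pr3, receptors that couple to several kinds of G protein, were low in every library. S1pr2 (chromosome 9, 20962361 to 20976781, minus strand) had 30, 58 and 23 counts (CD36+, PDPN+, double-negative), which is 0.507, 0.784 and 0.456 CPM. The interval of the S1pr2 ratio included 1 for CD36+ against PDPN+ cells (0.401 to 1.02) and against double-negative cells (0.625 to 2.01). For double-negative against PDPN+ cells the ratio was 0.581 (0.342 to 0.956), and its direction turned by the deposited TPM. S1pr3 (chromosome 13, 51408639 to 51422797, plus strand) had 0 counts (CD36+), 182 counts (2.46 CPM) (PDPN+) and 261 counts (5.17 CPM) (double-negative). S1pr3 was therefore detected in 2 libraries and not in the third, from CD36+ cells. Why that library held no counts was not tested. With the floor of 3 counts put in place of the 0, S1pr3 was at least 48.6-fold lower in CD36+ than PDPN+ cells and at least 102-fold lower than in double-negative cells. Such gaps were common at this level: of 5481 genes at 1 to 10 CPM in double-negative cells, 15.3% had at most 3 counts in CD36+ cells.

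Per transcript length, the makeup of the S1P receptor family differed between libraries. The 5 receptor genes summed to 217 TPM in CD36+ cells, 2.46 TPM in PDPN+ cells and 215 TPM in double-negative cells. S1pr1 made up 99.7% of that sum in CD36+ cells and 99.2% in double-negative cells. In PDPN+ cells S1pr1 made up 51.4% and S1pr3 36.2% of a sum that was itself small. S1pr4, a receptor of blood cells, had 61, 7 and 9 counts (CD36+, PDPN+, double-negative), and S1pr5, a receptor of natural killer and brain cells, had 1, 3 and 1. Neither S1pr4 nor S1pr5 reached 10 CPM in any library.

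**Figure D1:**
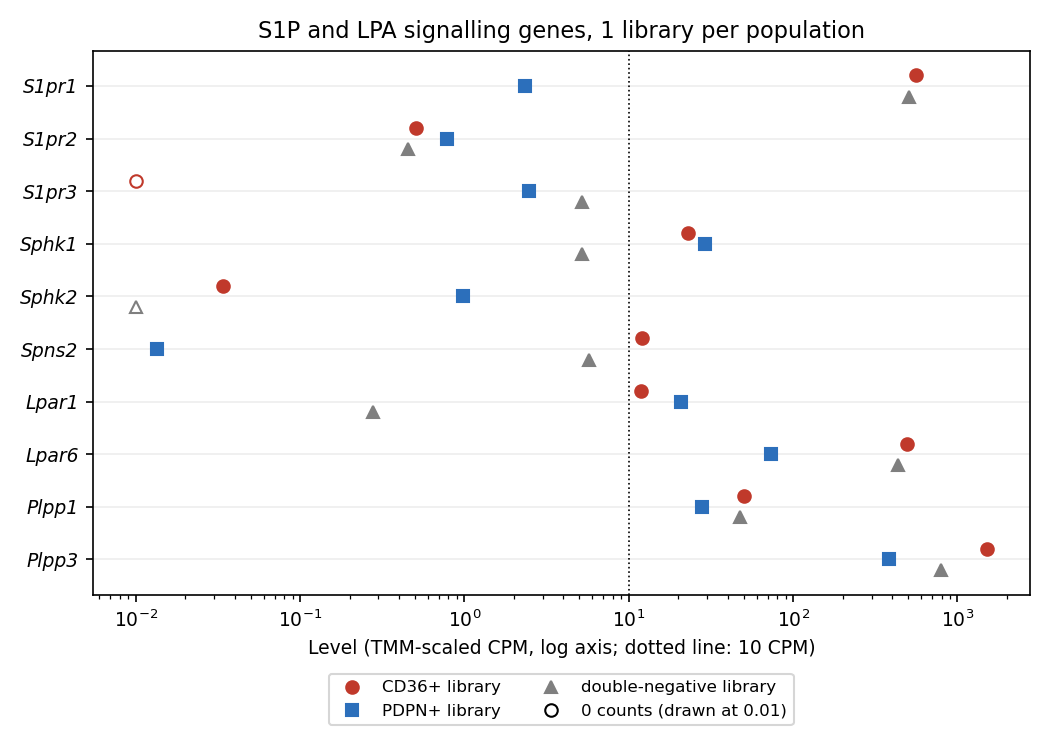
Level of each of the 10 genes in TMM-scaled CPM on a log axis, with 1 point for each library and open symbols for 0 counts. S1pr1, Lpar6 and Plpp3 sit furthest to the right, and the S1pr1 point of PDPN+ cells lies far to the left of the other 2.

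Of the genes that make and export S1P, Spns2 was nearly absent from PDPN+ cells, and Sphk1 was lowest in double-negative cells. Sphk1, the main inducible sphingosine kinase (chromosome 11, 116530925 to 116536674, plus strand), stood at 22.9 CPM (CD36+), 29.3 CPM (PDPN+) and 5.19 CPM (double-negative). Its order thus did not follow the endothelial profile, since double-negative cells were lowest and PDPN+ cells highest. Sphk1 was 4.42-fold higher in CD36+ than double-negative cells (3.87 to 5.07) and 5.64-fold lower in double-negative than PDPN+ cells (4.96 to 6.44). The counting interval of the Sphk1 ratio of the CD36+ to double-negative cells spans the 4-fold limit, and the ratio was 3.50 by the deposited TPM. Sphk1 was 1.28-fold lower in CD36+ than PDPN+ cells (1.19 to 1.37), and 1.97-fold lower by the deposited TPM.

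Sphk2, the second sphingosine kinase, found in nucleus and mitochondria (chromosome 7, 45709467 to 45718002, minus strand), had 2 counts (CD36+), 72 counts (PDPN+) and 0 counts (double-negative). At 0.974 CPM, its highest level was below 1 CPM. Sphk2 was 28.8-fold lower in CD36+ than PDPN+ cells, with an interval of 7.69 to 243 (48.4-fold by the deposited TPM), and at least 16.4-fold lower in double-negative than PDPN+ cells. Sphk1 carried 99.9% of the summed kinase TPM in CD36+ cells and 98.5% in PDPN+ cells.

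Spns2, the S1P exporter of endothelial cells (chromosome 11, 72451638 to 72489904, minus strand), had 713 counts (12.04 CPM) (CD36+), 1 count (PDPN+) and 291 counts (5.76 CPM) (double-negative). The Spns2 order matched that of the endothelial markers Cdh5 (465, 0.176 and 206 CPM) and Tek (274, 0.0135 and 93.9 CPM), at a far lower level. Spns2 was 891-fold higher in CD36+ than PDPN+ cells (159 to 35231) and 426-fold higher in double-negative than PDPN+ cells (75.9 to 16893), both intervals being wide because of the single count. The Spns2 ratio of CD36+ to double-negative cells was 2.09 (1.82 to 2.40). Mfsd2b, the S1P exporter of red cells and platelets, stood at 5.90 CPM (CD36+), 1.18 (PDPN+) and 1.09 (double-negative). Beside it, the red cell gene Hbb-bs had 3052 counts in CD36+ cells and 0 in the other 2, while the platelet gene Pf4 had 2, 0 and 1089 counts (CD36+, PDPN+, double-negative). The other markers of this list had other orders. The platelet genes Itga2b and Gp1bb had 496, 659 and 81 counts and 0, 2 and 69 counts, and the red cell gene Alas2 had 0, 1 and 0. The 5 platelet and red cell markers summed to 59.97, 8.95 and 24.5 CPM in that order of libraries. Their part in the Mfsd2b values was not tested.

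Among the LPA receptors, Lpar6 was the most abundant in every library, and the receptors next to it differed between libraries. Lpar6, an LPA receptor also found in endothelium and hair follicle (chromosome 14, 73237895 to 73243294, plus strand), stood at 495 CPM (CD36+), 72.9 CPM (PDPN+) and 433 CPM (double-negative). As for S1pr1, the first and last were close and PDPN+ cells were lowest, but still held 5392 counts. Lpar6 was 6.79-fold higher in CD36+ than PDPN+ cells (6.59 to 6.99) and 5.93-fold higher in double-negative than PDPN+ cells (5.76 to 6.11). The Lpar6 ratio of the CD36+ to double-negative cells was 1.14 (1.12 to 1.16). Lpar6 lies inside the gene of the tumour suppressor Rb1, on the opposite strand. This overlap is one of whole gene spans, and whether the counted transcripts share sequence was not checked. The sources used here do not state the strand setting of the counting, so reads from any shared sequence could not be told apart. Rb1 itself had 15.1, 28.6 and 12.5 CPM (CD36+, PDPN+, double-negative), and its part in the Lpar6 values was not tested. By gene span, Sphk2 likewise overlaps the ribosomal gene Rpl18 (286, 208 and 192 CPM) and the clock-regulated gene Dbp. Spns2 overlaps Mybbp1a (86.5, 107 and 59.7 CPM) and Plpp1 overlaps Mtrex (30.3, 28.5 and 43.6 CPM), each on the opposite strand.

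Lpar1, the most widely expressed LPA receptor, known in fibroblasts and smooth muscle (chromosome 4, 58435255 to 58553898, minus strand), had 700 counts (11.8 CPM) (CD36+), 1547 counts (20.9 CPM) (PDPN+) and 14 counts (0.277 CPM) (double-negative). Lpar1 was thus present in 2 libraries and close to absent in the third, and here double-negative cells stood apart. Lpar1 was 42.6-fold higher in CD36+ than double-negative cells (25.2 to 78.4) and 75.4-fold lower in double-negative than PDPN+ cells (44.8 to 138). Lpar1 was 1.77-fold lower in CD36+ than PDPN+ cells (1.62 to 1.94). Genes this low varied widely between libraries: of 2716 genes at 10 to 30 CPM in CD36+ cells, 12.8% had at most 14 counts in double-negative cells. The pericyte gene Pdgfrb, at 13.6, 3.62 and 0.0594 CPM (CD36+, PDPN+, double-negative), and the fibroblast gene Lum, with 2903, 3782 and 10 counts, were also lowest in double-negative cells. The most abundant gene of each list had another order, with the pericyte gene Rgs5 lowest in PDPN+ cells (241, 51.9 and 164 CPM) and the fibroblast gene Dcn lowest in CD36+ cells (43.1, 423 and 47.8 CPM). Of the 4 pericyte and 4 fibroblast markers, the first list summed to 258, 63.2 and 164 CPM and the second to 102, 509 and 50.6 CPM in the same order of libraries. Their part in the Lpar1 values was not tested.

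The other LPA receptors split the libraries further. Lpar3, an epithelial LPA receptor, had 0 counts (CD36+), 1061 counts (14.3 CPM) (PDPN+) and 3 counts (double-negative). Lpar4, a receptor of vessel-forming endothelium, was instead lowest in PDPN+ cells, with 926 counts (15.6 CPM), 2 counts and 1188 counts (23.5 CPM) (CD36+, PDPN+, double-negative). Against PDPN+ cells, CD36+ cells had an Lpar3 level at least 283-fold lower and an Lpar4 level 578-fold higher (159.7 to 4783). Lpar2 had 10 counts at most, and Lpar5 had 0 counts in all 3 libraries. Per transcript length, Lpar6 made up 92.5% of the summed LPA receptor TPM in CD36+ cells, 51.5% in PDPN+ cells and 93.3% in double-negative cells. In PDPN+ cells, Lpar1 (25.2%) and Lpar3 (23.2%) made up nearly all of the rest. The summed LPA receptor TPM was 113, 41.9 and 107 (CD36+, PDPN+, double-negative), a narrower gap than for the S1P receptors.

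The phosphatases were present in all 3 libraries, with Plpp3 by far the most abundant. Plpp3, a surface phosphatase that degrades LPA and is needed for vessel development (chromosome 4, 105157347 to 105232764, plus strand), stood at 1516 CPM (CD36+), 381 CPM (PDPN+) and 791 CPM (double-negative). The 3 libraries were evenly spread on a log scale, with double-negative cells between the others. Plpp3 was 3.98-fold higher in CD36+ than PDPN+ cells (3.93 to 4.04), just short of the 4-fold limit, and 2.08-fold higher in double-negative than PDPN+ cells (2.05 to 2.11). It was 1.92-fold higher in CD36+ than double-negative cells (1.89 to 1.94). Plpp1, a phosphatase with a broad tissue range (chromosome 13, 112800792 to 112867894, plus strand), had levels of 49.9, 27.9 and 47.8 CPM (CD36+, PDPN+, double-negative). Its CD36+ and double-negative values did not differ beyond counting error, with a ratio of 1.04 (0.989 to 1.10), and it was 1.79-fold higher in CD36+ than PDPN+ cells (1.69 to 1.89). Per transcript length, Plpp3 made up 91.8%, 81.4% and 86.7% of the summed TPM of Plpp1, Plpp2 and Plpp3 (CD36+, PDPN+, double-negative).

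The upstream sequences of Spns2, Lpar6 and Plpp3 are shown because these members were lowest in PDPN+ cells and RefSeq start sites for them were at hand. The study's title names TCF4, an E protein, and E proteins bind the E-box CANNTG, so matches to those letters are in capitals. Each line holds the 250 bases before the RefSeq start site in GRCm38.p6 (the mm10 sequence), written 5′ to 3′ on the strand of the gene. The windows are chr11:72475028-72475277 (minus strand) for Spns2, chr14:73237641-73237890 (plus strand) for Lpar6 and chr4:105157097-105157346 (plus strand) for Plpp3. The Spns2 start lies inside the longer span that GENCODE M21 gives the gene.
Spns2: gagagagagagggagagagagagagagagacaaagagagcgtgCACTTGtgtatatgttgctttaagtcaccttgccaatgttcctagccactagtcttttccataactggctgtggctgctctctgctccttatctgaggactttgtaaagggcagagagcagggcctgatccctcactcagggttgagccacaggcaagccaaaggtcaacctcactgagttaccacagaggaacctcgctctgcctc
Lpar6: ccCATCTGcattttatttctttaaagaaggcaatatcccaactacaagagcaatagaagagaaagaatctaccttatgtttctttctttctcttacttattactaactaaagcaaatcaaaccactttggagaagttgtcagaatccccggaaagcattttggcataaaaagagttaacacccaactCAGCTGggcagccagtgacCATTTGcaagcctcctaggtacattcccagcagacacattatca
Plpp3: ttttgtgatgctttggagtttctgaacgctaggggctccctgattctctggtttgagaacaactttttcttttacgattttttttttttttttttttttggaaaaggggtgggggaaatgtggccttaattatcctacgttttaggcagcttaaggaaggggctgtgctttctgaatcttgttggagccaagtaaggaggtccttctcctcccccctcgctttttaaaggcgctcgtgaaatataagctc
The Lpar6 window held 3 matches to CANNTG, the Spns2 window 1 and the Plpp3 window 0. The letters read the same on both strands, and 66.2% of all 32807 RefSeq windows of this length held at least 1 match, so a match is what most windows show. Of the Lpar6 matches, 1 was CAGCTG, which 13% of all windows held on either strand. GC content was 39.2% for Lpar6, 42.4% for Plpp3 and 51.6% for Spns2, against a median of 52.4% over all windows, and none of the 3 held the GC box GGGCGG on either strand, which 32.7% of all windows held. The Plpp3 window held the ETS core AGGAAG, as did 29.5% of all windows. Among the 10 genes, 8 had RefSeq windows, and S1pr1 and Plpp1 had none. These matches are letters in a window, and no binding was measured.

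Set side by side, the comparisons differed in which members stood apart. Of the 10 genes, 7 reached 10 CPM in the CD36+ or PDPN+ library, and 3 of them, S1pr1, Spns2 and Lpar6, were at least 4-fold higher in CD36+ cells. None of the 7 was at least 4-fold lower. By the deposited TPM the count was 2, since Spns2, at 6.08 TPM, fell short of a minimum of 10 TPM. Over all 9387 genes that reached 10 CPM in either of these libraries, 15.1% passed this rule as higher in CD36+ cells and 17.6% as lower, 32.7% in either direction. These were 1415 higher and 1654 lower genes, a split that moved to 1120.0 and 2124 under total counts and to 1091 and 2046 by the deposited TPM. The median log2 ratio of the 7 members was 1.99, which is the value of Plpp3, against -0.02 over all genes. S1pr1 and Spns2 reached 10 CPM only in CD36+ cells, and the members were chosen with earlier results known. The median therefore describes these members and not the pathways as a whole. With no minimum level, S1pr3 and Sphk2 were also at least 4-fold apart, both lower in CD36+ cells.

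Between the double-negative and PDPN+ libraries, 6 members reached 10 CPM. S1pr1 and Lpar6 were at least 4-fold higher in double-negative cells, and Sphk1 and Lpar1 at least 4-fold lower. Over 9515 genes, 14.9% were higher and 19.3% lower by this rule, 34.2% in either direction. The median log2 ratio of the 6 members was 0.92, against -0.11 over all genes. The wider pathway lists did not share that direction. Their median was -1.76 for LPA receptors, -1.46 for S1P synthesis and export and -1.28 for S1P breakdown. It was 0.78 for LPA supply and removal and 7.74 for S1P receptors, where only S1pr1 reached 10 CPM. Spns2 did not enter this count, since its level of 5.76 CPM in double-negative cells was below the minimum. With no minimum level, Spns2 was also higher and Sphk2 lower in double-negative cells by at least 4-fold. This comparison shares the PDPN+ library with the one before, so the like values of S1pr1 and Lpar6 in both rest in part on the same library.

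Between the CD36+ and double-negative libraries, 7 members reached 10 CPM, and Sphk1 and Lpar1 were at least 4-fold higher in CD36+ cells. None of the 7 was at least 4-fold lower, and with no minimum level S1pr3 was lower. Over 8968 genes, 12.2% were higher and 11.9% lower in CD36+ cells, 24.2% in either direction. The median log2 ratio was 0.94 for the 7 members and 0.11 over all genes, and the choice of members limits it in the same way. How often genes were apart depended on their level, by limits chosen after the values were seen. Of 3415 genes whose higher library held 10 to 30 CPM, the range of Sphk1 and Lpar1, 42.8% were at least 4-fold apart in either direction. Of 1223 genes at 200 CPM or more, the range of S1pr1, Lpar6 and Plpp3, 1.96% were. The 2 members called in this comparison thus lie where such gaps were frequent, and the 3 abundant members were within 2-fold, as nearly all genes of their level were within 4-fold. Against PDPN+ cells, 19.3% of the 1341 genes at 200 CPM or more were at least 4-fold higher in CD36+ cells and 15.7% of 1271 in double-negative cells.

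**Figure D2:**
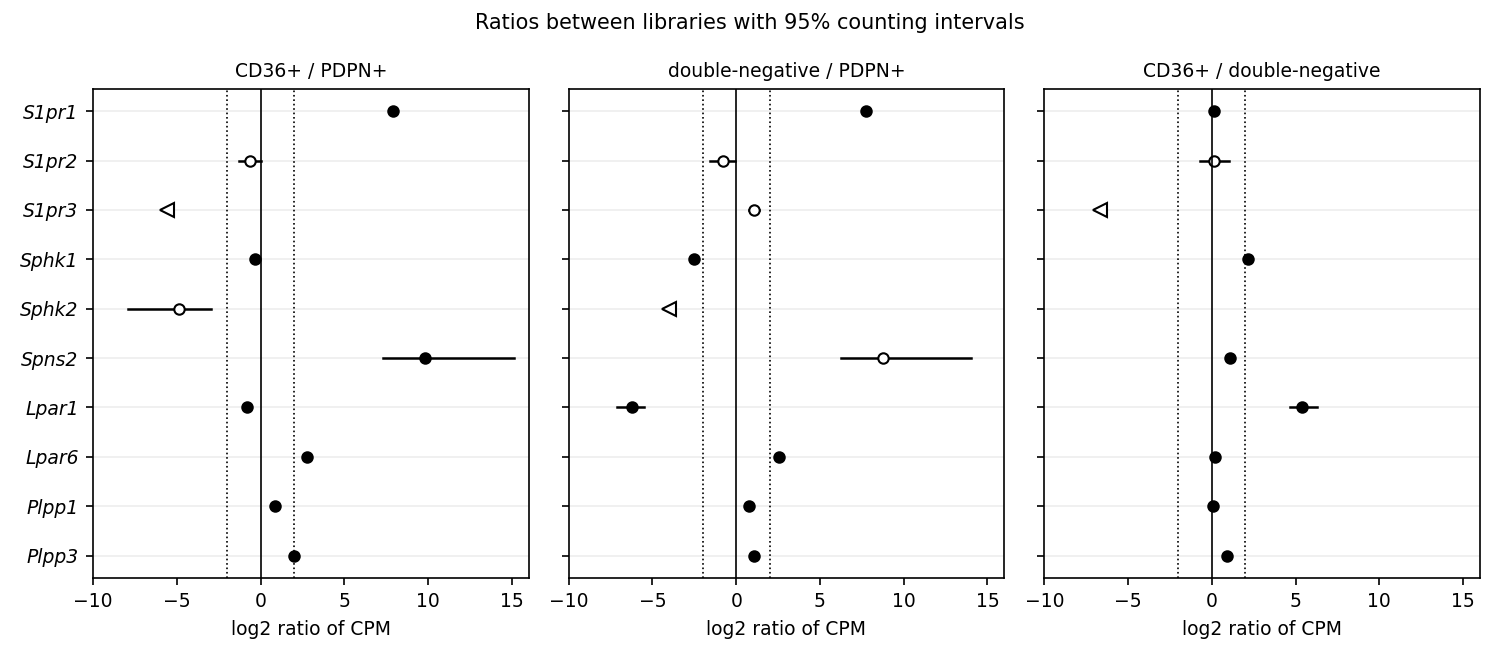
Log2 ratio of CPM for each gene in the 3 comparisons, with 95% counting intervals as bars, filled points where the higher library held 10 CPM or more, and triangles for ratios against the floor of 3 counts. Dotted lines mark 4-fold, and the Plpp3 point of the CD36+ to PDPN+ comparison lies on that line at 3.98-fold.

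**Figure D3:**
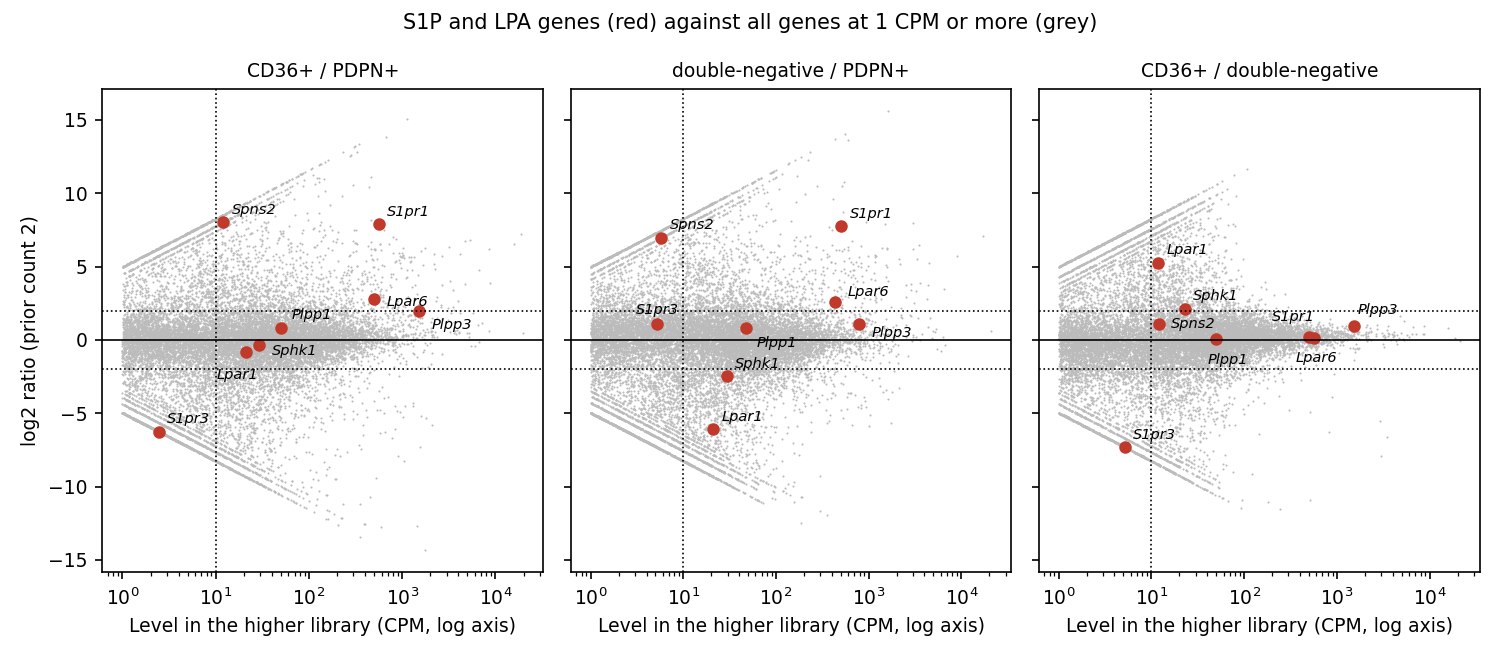
Log2 ratio (prior count of 2) against the level in the higher library for all genes at 1 CPM or more (grey) and for the members at that level (red, named), in 3 panels, 1 for each comparison. In the panel of the CD36+ and double-negative libraries the grey cloud narrows to the right, where S1pr1, Lpar6 and Plpp3 lie, and is wide around Lpar1 and Sphk1.

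Genes near the members in the pathways also differed between the 3 libraries. In the supply of LPA, Enpp2, which encodes autotaxin, differed widely at a high level. Enpp2 stood at 62.3 CPM (CD36+), 268 CPM (PDPN+) and 2889 CPM (double-negative). It was 46.4-fold higher in double-negative than CD36+ cells (44.9 to 47.9) and 10.8-fold higher than in PDPN+ cells (10.6 to 11.0). Enpp2 was thus highest where Lpar1 was lowest, and it was among the 20 of 1223 genes at 200 CPM or more that were at least 4-fold lower in CD36+ than double-negative cells. Liph, which encodes a membrane enzyme that makes LPA from phosphatidic acid, followed the same order at a low level, with 15, 364 and 808 counts. Pla1a, a phospholipase that can yield the lyso form of phosphatidylserine, had 2, 246 and 0 counts. Of the 8 genes for supply and removal of LPA, 6 reached 10 CPM in the CD36+ or PDPN+ library. Of these, 0 were at least 4-fold higher in CD36+ cells and 2 were lower, Enpp2 and the LPA phosphatase gene Acp6 (10.7 against 44.6 CPM). Over all genes of this pair, 15.1% were higher and 17.6% lower. Liph and Pla1a, both under 10 CPM in this pair, were 19.4-fold and 98.5-fold lower in CD36+ cells.

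In the synthesis and export of S1P, 4 of 7 genes reached 10 CPM in the CD36+ or PDPN+ library. Of these, 2, Spns2 and Abca1, were at least 4-fold higher in CD36+ cells, against 15.1% over all genes. With 4 genes, this count cannot be weighed against that share. Abcc1, of the same list, was highest in PDPN+ cells, within 4-fold (24.5, 40.1 and 14.5 CPM for CD36+, PDPN+ and double-negative). By the deposited TPM it was 4.21-fold lower in CD36+ and 7.92-fold lower in double-negative than PDPN+ cells. Abca1, a lipid transporter also linked to S1P release, stood at 592, 39.3 and 485 CPM (CD36+, PDPN+, double-negative). Apom, the plasma carrier of S1P, had 43 counts at most. Of the 6 genes for breakdown of S1P, 5, 5 and 4 reached 10 CPM in the 3 comparisons, and 0 of these were at least 4-fold apart by CPM. Over all genes, 32.7%, 34.2% and 24.2% were apart in either direction. With so few genes, 0 calls do not show that this list was steadier than others. Below 10 CPM, the S1P phosphatase Sgpp2 had 7, 51 and 116 counts. Sgpp2 was 5.83-fold lower in CD36+ than PDPN+ cells and 19.4-fold lower than in double-negative cells. Sgpl1, the lyase that destroys S1P, stood at 30.9, 57.0 and 18.9 CPM and the S1P phosphatase Sgpp1 at 10.9, 39.5 and 16.2 CPM, both highest in PDPN+ cells. Sgpp1 was 3.62-fold lower in CD36+ than PDPN+ cells by CPM, but 5.08-fold lower by the deposited TPM (3.83 against 19.5 TPM).

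**Figure D4:**
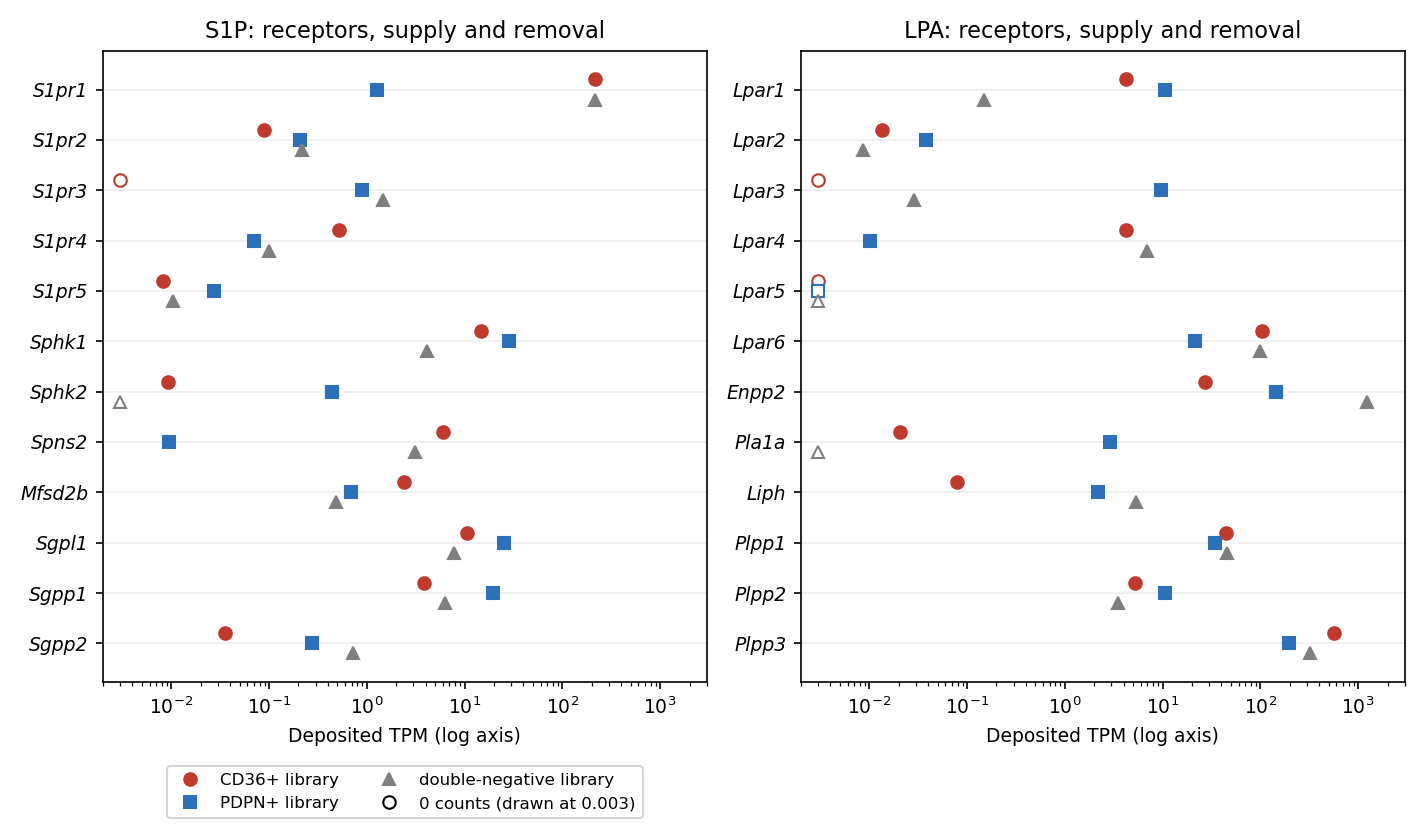
Deposited TPM on a log axis for genes of S1P (left) and LPA (right) signalling in the 3 libraries, with open symbols for 0 counts. S1pr1 and Lpar6 lead their receptor families, and Enpp2 reaches its highest value in double-negative cells.

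Upstream of S1P, ceramidases free sphingosine from ceramide. Of 8 ceramidase and sphingomyelinase genes, 4 reached 10 CPM in the CD36+ or PDPN+ library. Of these, 1 was called higher and 1 lower in CD36+ cells, against 15.1% and 17.6% over all genes. The Golgi ceramidase Acer2 was at least 4-fold higher in CD36+ cells (36.9 against 3.46 CPM, but a ratio of 3.81 by the deposited TPM) and the sphingomyelinase Smpd2 at least 4-fold lower (2 counts against 1377). The lysosomal ceramidase Asah1 (149, 65.1 and 179 CPM) and Acer3 (255, 89.6 and 299 CPM) were lowest in PDPN+ cells, within 4-fold. Of 21 genes of de novo sphingolipid synthesis, 2 were at least 4-fold higher and 2 lower in CD36+ than PDPN+ cells, of 14 at 10 CPM. Those counts are close to the shares over all genes. Ugcg, which makes glucosylceramide, stood at 364, 76.4 and 592 CPM. Sptlc1, an obligate subunit of the first enzyme of the route, had 151, 2410 and 3 counts, and the ceramide synthase gene Cers6 had 4443, 3203 and 14 counts (CD36+, PDPN+, double-negative). Sptlc1 and Cers6 thus shared with Lpar1 a count of 14 or fewer in double-negative cells, a limit set by the Lpar1 count itself. Of 7872 genes at 10 CPM or more in PDPN+ cells, 8.87% had at most 14 counts in double-negative cells.

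Downstream, G protein subunits through which the receptors signal were present in all 3 libraries. Gna11, a subunit of the Gq family, was lower in double-negative than PDPN+ cells (34.1 against 172 CPM). Gnai2, a Gi subunit used by S1PR1, stood at 164, 71.9 and 125 CPM, and Gna13, another receptor-coupled subunit, at 285, 217 and 305 CPM. Genes of receptor desensitisation also differed. The receptor kinase Grk2 stood at 2.70, 39.9 and 19.0 CPM and the arrestin Arrb1 at 2.96, 29.96 and 32.0 CPM, both lowest in CD36+ cells. Grk5 was 6.13-fold higher in CD36+ than PDPN+ cells, at 46.1 against 7.53 CPM. Of 6 genes linked to the transcription factors YAP or SRF, with Srf itself among them, 4 reached 10 CPM in the CD36+ or PDPN+ library. Of these 4, Amotl2 and Vcl were at least 4-fold higher in CD36+ than PDPN+ cells, against 15.1% over all genes. Ccn1 (96.9, 139 and 108 CPM) and Ccn2 (35.7, 129 and 44.2 CPM) were highest in PDPN+ cells. Vcl was also higher in CD36+ than double-negative cells (276 against 31.8 CPM). Ankrd1, below 10 CPM, had 0, 1 and 212 counts (CD36+, PDPN+, double-negative).

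Transcript lengths were read from the deposited counts and TPM together, since their quotient gives the mean effective length of the transcripts that were counted. S1pr1, S1pr3, Lpar6 and Plpp3 have a single annotated transcript in GENCODE M21, so their CPM and TPM differ between libraries by scaling alone. Sphk1 has 16 annotated transcripts, and its mean effective length was 1731 bases (CD36+), 1575 (PDPN+) and 1509 (double-negative). For Plpp1, with 2 transcripts, it was 1226, 1239 and 1267 bases, and for Lpar1, with 8, it was 3053 and 3058 bases in the CD36+ and PDPN+ libraries. Spns2 gave 2177 and 2217 bases in the CD36+ and double-negative libraries. For Plpp1, CPM were higher in CD36+ than in double-negative cells (49.9 against 47.8) and TPM lower (44.75 against 45.6). For S1pr2, with 58 counts at most, the deposited TPM of 0.0896, 0.207 and 0.216 put double-negative cells level with PDPN+ cells, while its CPM was lower there.

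The genes whose pattern over the 3 libraries lay nearest to a member were found by the distance between centred log2 CPM, among 9057 coding genes with at least 10 CPM in some library. For S1pr1 they were Ccdc85a, Csgalnact1, Tlr4, Ifi44 and St3gal4, at distances of 0.16 to 0.29 log2 units, and 20 genes lay within 0.5. For Spns2 they were Tmem252, Chst15, Rbp7, Plxnd1 and Ifi44l, at 0.09 to 0.29, with 15 genes within 0.5. Lpar6 had more neighbours, 157 within 0.5, with Cst3, Enpp5, Pea15a, Snrnp200 and Il6st nearest (0.03 to 0.10). Plpp3 had 278 neighbours, with Ell, Ehd2, Klhl3, Plaur and Scn8a nearest (0.03 to 0.07), and Sphk1 had 125, with Actr1b, Irf3, Mycbp, Acsl1 and Zfp503 nearest (0.01 to 0.09). A pattern over 3 libraries has few degrees of freedom, so these distances are a description only.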

How the data were processed

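RNA of 3 sorted populations was sequenced, 1 library each, with groups taken from the labels. Per the labels' protocols, RNA was extracted with either of 2 kits, and libraries were made with a low-input kit or with a stranded kit that removes ribosomal RNA. The sources used here do not assign kits or instruments to libraries, so kit and population cannot be told apart. Quantification used Salmon 0.9.1 and mm10, per the submitters' processing notes. Annotation release and strand setting: not given in the sources used here.

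Per gene, the authors deposited fractional estimated counts and TPM for each library. The deposited gene lengths were not used as lengths, since that of Sphk1 (163 bases in CD36+ cells) is below its shortest transcript in GENCODE M21 (522 bases). Counts were rounded to whole numbers. Names and coordinates came from GENCODE M21 (mm10), which matched 52566 of 52661 identifiers without version. The unmatched took up to 0.00811% of a library's counts. TMM factors over all 3 libraries came from edgeR 4.0.16 (R 4.3.3). Log2 ratios used a prior count of 2. Printed folds are plain ratios of CPM with exact 95% intervals. Reads carry no molecular identifiers and can be PCR copies, so the intervals and the floor reflect counting error alone. Folds against 0 counts used a floor of 3 counts in that library (0.0507 CPM in the CD36+, 0.0406 in the PDPN+ and 0.0594 in double-negative cells). Mean effective length was the quotient of counts and TPM, scaled on genes with a single transcript. Promoter windows came from RefSeq. The size rule and the intervals were run on simulated counts that held counting error only, with planted changes larger than the 4-fold limit. TMM scaling, variation between libraries and low counts were not tested by that run. Python 3.11.15 with numpy 2.4.6, pandas 2.3.3, scipy 1.17.1 and matplotlib 3.10.9 was used. Alternatives were scaling by total counts, upper quartile factors and DESeq2 1.42.0 size factors, the deposited TPM, other minimum levels and a 2-fold rule.

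The members and gene lists were chosen with earlier results of these data known. Named genes were the members, the 5 nearest patterns of 5 members, and some of the most abundant or called genes of the pathway lists and some of the leading markers. Other abundant or called genes of these lists were not named. Krt5 and Acta2 were named after their values were seen. Examples outside this rule, such as S1pr4, S1pr5, Lpar2, Lpar5, Pla1a, Apom, Mfsd2b, Rb1, Cdh5, Tek, Trp63, Pdgfrb, Sgpp2, Lum, Gnai2, Gna13, Ankrd1, Krt19, Itga2b, Gp1bb and Alas2, were named after their values were seen.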

Additional observations from a re-analysis of the deposited data

How the results depend on the processing

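The number of members at least 4-fold apart moved by over 1.5 times in 3 cases. Between the CD36+ and PDPN+ libraries it was 5 with no minimum level, against 3. Between the CD36+ and double-negative libraries it was 1 under total counts and 0 by the deposited TPM, against 2. The S1pr1 log2 ratio of the CD36+ to double-negative cells turned to -0.0239 under total counts, and that of S1pr2 for the double-negative against PDPN+ cells turned to 0.0567 by TPM. Of 113 member ratios under these alternatives, 107 kept their sign. Of the 6 that changed it, the other 4 were the ratios of CD36+ to double-negative cells of S1pr2 (-0.0209 and -1.2669) and Plpp1 (-0.1125 and -0.0273), under total counts and TPM, whose counting intervals included a ratio of 1. With TPM the minimum was 10 TPM, which Lpar1 did not reach in that pair. Total counts moved every log2 ratio by -0.40, -0.23 and -0.17 for the CD36+ against the PDPN+, the double-negative against the PDPN+ and the CD36+ against double-negative cells. Upper quartile factors moved the first 2 by 0.27 and 0.28, and took Plpp3 past 4-fold (log2 ratio 2.26).

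Over all genes, the number apart was 3069, 3256 and 2167 for the same comparisons. It was 6426, 6675 and 5300 at a minimum of 1 CPM, 8585, 8908 and 7457 with no minimum, and 5008, 5289 and 3939 at 2-fold. For the CD36+ against PDPN+ cells, 1415 were higher and 1654 lower, against 1120.0 and 2124 under total counts, 1660.0 and 1381 with upper quartile factors and 1091 and 2046 by TPM. No paired analysis was possible because each population has 1 library, and for the same reason no library could be left out. Members under 10 CPM rest on few counts, and the floor of 3 counts limits what a 0 can show.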
